A study of Mus musculus with 4 samples.

Results

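The heat shock and DnaJ chaperones were followed as 76 genes of the 32285 in the deposited matrices: every gene whose symbol starts with Hspa, Hspb, Hspd1, Hspe1, Hsph1, Hsp90 or Dnaj, plus Cryab. They comprised 13 Hspa genes, 10 Hspb genes and 45 Dnaj genes, of which 28 were Dnajc genes, beside the HSP90, HSP60, HSP10 and HSP110 genes and Cryab. The cells came from MC38b tumours engrafted in mice. MC38 itself is a colon carcinoma line of the mouse, and what the added letter stands for is not stated in the labels. Mice received 2 doses of antibodies against PD-1 and TL1A together (the combination library), of anti-PD-1 alone (the anti-PD-1 library) or of saline (the libraries PBS 1 and PBS 2), and tumours were taken 24 h after the last dose. PD-1 is an inhibitory receptor of T cells, and TL1A is a cytokine of the TNF family. All 4 libraries shared the tumour line, the digestion of the tissue, the dead-cell stain and the sort by CD45 and CD3, after which T cells, other CD45+ cells and CD45-negative cells were mixed at 9 to 9 to 2 parts. Strain, sex and age were not given in the sources used here. The design names 2 saline and 4 treated animals and pooling before the sort, with 20000 cells loaded per condition, and does not say whether a PBS library is 1 animal, so a p-value here reflects how far libraries differ, a spread that can be technical.

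Heat shock proteins bind unfolded or stressed proteins. HSP70 proteins bind and release client segments in an ATP cycle, DnaJ proteins deliver the clients and start the cycle, and HSP90 acts later in the folding of kinases and receptors. The small heat shock proteins, such as Cryab and Hspb1, hold unfolded proteins without ATP, and separate sets serve the endoplasmic reticulum (Hspa5, also called BiP, with Hsp90b1) and the mitochondrion (Hspa9, Hspd1 and Hspe1). Heat shock factor 1 turns on the inducible members, above all Hspa1a and Hspa1b, within minutes of heat or other stress, and warm digestion of tissue is known to raise the same transcripts in dissociated cells. Tumour cells commonly carry high levels of constitutive chaperones.

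Single-cell RNA was read by droplet sequencing. After filtering, 9932 cells remained in the combination library, 11523 in the anti-PD-1 library, 6219 in PBS 1 and 5957 in PBS 2, with totals of 142600208, 82816801, 92495603 and 78648222 unique molecular identifiers (UMIs) before it. The anti-PD-1 library was the shallowest: the median barcode held 7098 UMIs in the combination library and 3588 in anti-PD-1, against 7798 in PBS 1 and 7645.5 in PBS 2. Libraries shared cell barcodes: 673 between the PBS libraries, 1255 between PBS 1 and anti-PD-1, 1778 between PBS 2 and anti-PD-1, and 21 to 39 between the combination library and each of the others. Of the pairs without the combination library, the smaller copy held a median of 1.15 to 2.65% of the UMIs of the larger. Such copies made up at most 3.02% of the cells of a class and library, except for 13.5% of the anti-PD-1 dendritic cells. Results were repeated without them, with the remaining cells clustered and classed anew, an alternative added after the data were seen. Calls that were lost are named beside their values. The part of changed class membership in these losses was not tested. Cells fell into 9 classes from marker genes: CD8, conventional CD4 and regulatory T cells, NK cells, B cells, monocytes and macrophages, dendritic cells, neutrophils, and CD45-negative cells. Clusters with a median under 2000 UMIs, or under 10000 if CD45-negative, were left out, as were unnamed and mixed clusters. Low UMIs took out 388 combination cells, 2458 anti-PD-1 cells, 220 PBS 1 cells and 317 PBS 2 cells. The CD45-negative clusters left out for depth held 49, 907, 240 and 690 cells in that order, so the loss was uneven between libraries. The CD45-negative class (504 combination cells, 298 anti-PD-1 cells, 349 PBS 1 cells and 160 PBS 2 cells) joins clusters N1, N4, N5 and N9, which could not be split into tumour and stroma by markers. N1 was led by Hmga2, Cst6 and Htra1, N4 by Col3a1, Ptn and Dcn, N5 by the cycling genes Anln and Top2a, and N9 by Robo2 and Robo1. Counts were summed per class and library, so fewer expressing cells and less RNA per cell cannot be told apart in these sums. The 6 tumour or epithelial markers summed to 0.176 CPM (UMI counts scaled by library size) in the combination library, 0.554 in anti-PD-1, 0.228 in PBS 1 and 0.385 in PBS 2, with 3 or 4 of them at 0, and the 6 fibroblast markers to 2267, 1964, 3403 and 2895 CPM, with none at 0.

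Hspb2, Hspb3 and Hspb7 had under 20 UMIs in all kept cells and count as scarcely detected. Of the other 73 members, 65 passed the filter on low counts between classes and 69 in at least 1 class for the treatment comparisons. Some counts are uncertain because other genes hold the same 31-base stretches in the last 500 bases of the transcript: 49.6% for Hspa8, 40.6% for Hspb11, 35.1% for Dnajc17, 27.0% for Hspb1, 26.6% for Dnajc2, 19.6% for Dnajc5b and 18.7% for Hsp90ab1. Exons of Cryab overlap those of Hspb2 on the opposite strand over 17.0% of their length, those of Hspa1a overlap Gm20481 over 19.01% and those of Dnaja4 overlap Wdr61 over 44.1%. The sources used here do not state whether reads were counted by strand.

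The start-site sequences of 5 members are shown because they carry the elements through which heat shock factors and the unfolded protein response are known to act. A heat shock element is built from inverted GAA units. A 2-unit match was searched as GAANNTTC or TTCNNGAA and a 3-unit match as GAANNTTCNNGAA, on both strands, with the 2-unit match lying inside the 3-unit one. The endoplasmic reticulum stress element was searched as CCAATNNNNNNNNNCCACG. Each window runs from 250 bases before to 50 bases after the RefSeq start (GRCm38.p6), 5′ to 3′ on the gene's strand, and matches are in capitals. Hspa1a lies at chr17:34972107-34972406 and Hspa1b at chr17:34959189-34959488, both on the minus strand, Hspb1 at chr5:135887669-135887968, Hspe1 at chr1:55087898-55088197 and Hspa5 at chr2:34771840-34772139, all 3 on the plus strand.
Hspa1a: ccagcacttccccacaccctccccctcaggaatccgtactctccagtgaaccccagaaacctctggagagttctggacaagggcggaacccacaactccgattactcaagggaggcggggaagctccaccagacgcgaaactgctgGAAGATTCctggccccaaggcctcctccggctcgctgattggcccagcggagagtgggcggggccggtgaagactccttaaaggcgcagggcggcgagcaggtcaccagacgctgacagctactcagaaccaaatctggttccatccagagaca
Hspa1b: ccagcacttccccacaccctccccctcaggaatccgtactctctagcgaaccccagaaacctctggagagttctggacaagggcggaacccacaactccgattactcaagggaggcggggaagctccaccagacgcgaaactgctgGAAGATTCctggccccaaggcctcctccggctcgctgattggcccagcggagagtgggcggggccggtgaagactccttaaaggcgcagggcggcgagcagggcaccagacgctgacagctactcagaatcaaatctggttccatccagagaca
Hspb1: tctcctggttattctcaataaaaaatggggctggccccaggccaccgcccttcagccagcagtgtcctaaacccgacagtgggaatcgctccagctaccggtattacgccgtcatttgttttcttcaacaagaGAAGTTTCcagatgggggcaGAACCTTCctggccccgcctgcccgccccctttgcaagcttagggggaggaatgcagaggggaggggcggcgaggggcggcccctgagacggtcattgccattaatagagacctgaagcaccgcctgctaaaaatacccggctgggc
Hspe1: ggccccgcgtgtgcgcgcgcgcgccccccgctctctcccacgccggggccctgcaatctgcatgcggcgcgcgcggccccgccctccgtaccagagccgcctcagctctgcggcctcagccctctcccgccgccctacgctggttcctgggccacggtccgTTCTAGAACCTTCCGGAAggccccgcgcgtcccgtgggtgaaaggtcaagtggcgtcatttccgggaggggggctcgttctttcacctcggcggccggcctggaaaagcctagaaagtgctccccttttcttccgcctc
Hspa5: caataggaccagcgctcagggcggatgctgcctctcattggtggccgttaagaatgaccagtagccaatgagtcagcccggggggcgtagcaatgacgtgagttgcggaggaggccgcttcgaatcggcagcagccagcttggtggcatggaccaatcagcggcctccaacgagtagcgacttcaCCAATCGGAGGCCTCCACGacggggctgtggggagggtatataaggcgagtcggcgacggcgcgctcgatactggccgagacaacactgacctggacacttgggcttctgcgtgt
The Hspa1a and Hspa1b windows were identical at 296 of 300 positions, and both held 1 match of 2 units, at base -104 from the start. Hspb1 held 2 such matches, at -117 and -97. The Hspe1 window shares 285 bases with that of Hspd1, which is read the other way, so the HSP10 and HSP60 genes share the same stretch of 2 overlapping 3-unit matches. Members were counted by gene, if any of their windows matched, and the backgrounds by window, over 32851 windows of 27025 genes. The 2 are not like measures, since a gene can have several windows. A 2-unit match was found in 16 of the 60 members with a window (26.7%), against 15.1% of all 32851 windows. A 3-unit match was found in 4 members, Dnajb6, Hspd1, Hspe1 and Hsph1 (6.67%), against 0.603% of windows, and the stress element in 3, Dnajc3, Hsp90b1 and Hspa5 (5.0%), against 0.119%. A match describes letters only.

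CD45-negative cells had the highest chaperone share of the 9 classes in each library. The 76 genes made up 1.67% of all UMIs of this class in the combination library, 1.495% in anti-PD-1, 1.63% in PBS 1 and 1.60% in PBS 2. The share in monocytes and macrophages was 0.795%, 0.732%, 0.850% and 0.796% in the same libraries, and in neutrophils 0.429%, 0.454%, 0.566% and 0.556%. In neutrophils both treated libraries thus lay below both PBS libraries. The same order held in CD8 T cells, conventional CD4 T cells, regulatory T cells and NK cells. It also held in monocytes and macrophages, where the combination library and PBS 2 nearly coincided. The shares were not tested between libraries. Of the 76 members, 31 had their highest mean level in CD45-negative cells, 10 in neutrophils, 9 in dendritic cells and 6 each in CD8 T cells and in monocytes and macrophages.

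Between classes, 43 of the 65 tested members (66.2%) were higher in CD45-negative cells than in the 8 immune classes, where 46.7% of all genes were higher, and 13 were lower, where 34.4% of all genes were lower. The median difference of the members was 0.68 on the log2 scale, against 0.14 for all 14811 genes tested. Monocytes and macrophages were higher than the lymphocyte classes for 28 members (43.1%, background 40.7%) and lower for 16 (24.6%, background 32.6%), with a median of 0.23 against 0.09 for all genes. Neutrophils were higher than monocytes and macrophages for 14 members (21.5%, background 22.5%) and lower for 34 (52.3%, background 33.7%), with a median of -1.14 against -0.45. The scaling moved that last background: the median of all genes in neutrophils was -0.20 with DESeq2 size factors and 0.00 in the DESeq2 test, and the neutrophil values are given on the main scale. The test was edgeR's quasi-likelihood test on summed counts with the library as a block, called at an adjusted p under 0.05. Without the smaller copies of shared barcodes, 55, 45 and 50 members differed in the 3 comparisons. With all sums thinned to equal totals, 43 members were tested, and 24 were higher and 7 lower in CD45-negative cells. In monocytes and macrophages 10 were higher and 9 lower, and in neutrophils 11 were higher and 16 lower. Both of these comparisons were more even than on the full sums. Of the 7817 genes tested on thinned sums, 2690 were higher and 2654 lower in CD45-negative cells. The counts of all genes were 2358 and 1910 in monocytes and macrophages, and 2226 and 2238 in neutrophils. The share of members higher in monocytes and macrophages thus lay below that of all genes on thinned sums. The shares of all genes on the full sums are the background for the counts by role below.

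**Figure D1:**
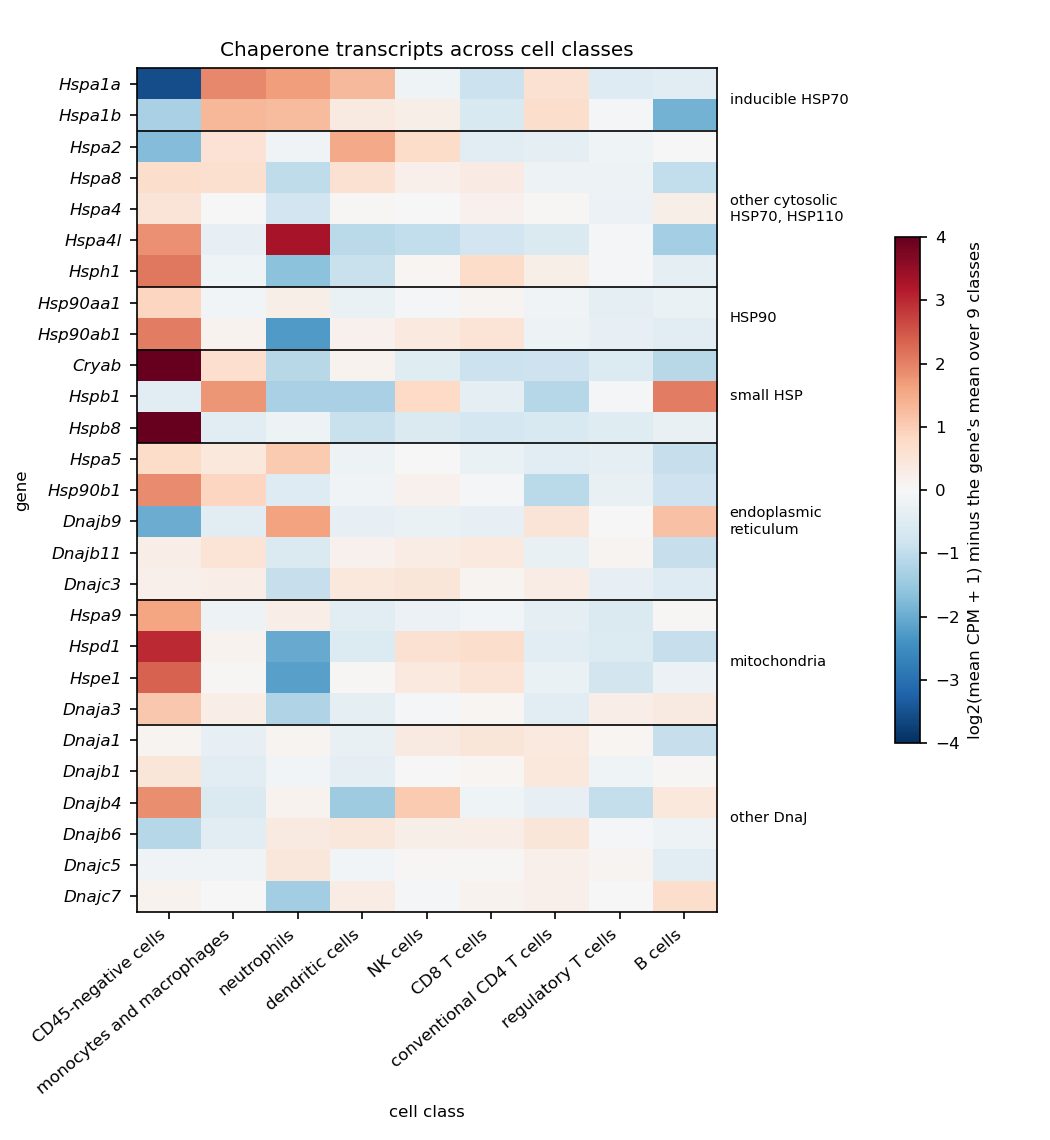
The 27 core members by role (rows) and cell class (columns); colour gives log2(mean CPM + 1) over the 4 libraries minus the gene's mean over the 9 classes. CD45-negative cells stand out for Cryab, Hspb8, Hspd1 and Hspe1 on the high side and for Hspa1a on the low side; neutrophils stand out for Hspa4l.

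Of the inducible HSP70 genes, Hspa1a was near 0 in CD45-negative cells, and Hspa1b was lower there than the average of the immune classes. Hspa1a, the stress-induced cytosolic HSP70, had 0.155 CPM in the combination library, 0.151 in anti-PD-1, 0.118 in PBS 1 and 0 in PBS 2 in CD45-negative cells. Monocytes and macrophages had 73.4, 48.0, 44.5 and 24.8 CPM in the same libraries, and the 2 classes did not overlap. The difference of CD45-negative cells from the immune classes was -7.04 ± 0.66 (log2, SE; edgeR adjusted p = 2.3e-10). Hspa1b, which encodes a nearly identical protein from the neighbouring gene, had 2.74 CPM in the combination library, 2.56 in anti-PD-1, 6.35 in PBS 1 and 2.82 in PBS 2 in CD45-negative cells. Against the average of the immune classes Hspa1b was lower by a smaller step, -1.64 ± 0.60 (adjusted p = 0.016 in edgeR). This did not hold for each class and library. Without TMM scaling, Hspa1b in PBS 2 had 2.58 CPM in CD8 T cells and 1.66 in regulatory T cells, against 2.93 in CD45-negative cells. In PBS 1 both T cell classes lay above CD45-negative cells, at 10.2 and 27.9 CPM against 6.13. Monocytes and macrophages were above the lymphocytes for both genes, by 2.32 ± 0.22 for Hspa1a and 1.90 ± 0.38 for Hspa1b.

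The 2 genes took different shares of the pair by class. CD45-negative cells gave 5 Hspa1a and 88 Hspa1b UMIs in the combination library, 2 and 34 in anti-PD-1, 3 and 161 in PBS 1, and 0 and 38 in PBS 2. Hspa1a took 3.02% of the pair's UMIs there (95% exact binomial interval 1.46 to 5.49), with 5.38% in the combination library, 5.56% in anti-PD-1, 1.83% in PBS 1 and 0% in PBS 2. Monocytes and macrophages gave 816 and 485 UMIs of Hspa1a and Hspa1b in the combination library, 365 and 174 in anti-PD-1, 523 and 345 in PBS 1, and 295 and 154 in PBS 2, so that Hspa1a took 63.3% (61.6 to 65.0). Hspa1a took 49.9% in CD8 T cells, 46.4% in NK cells and 69.8% in dendritic cells. Whole transcripts of the pair share 63.8% of the 31-base stretches of Hspa1a, whereas their last 500 bases share at most 2.15% with any other gene. Intervals cover counting error only.

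**Figure D2:**
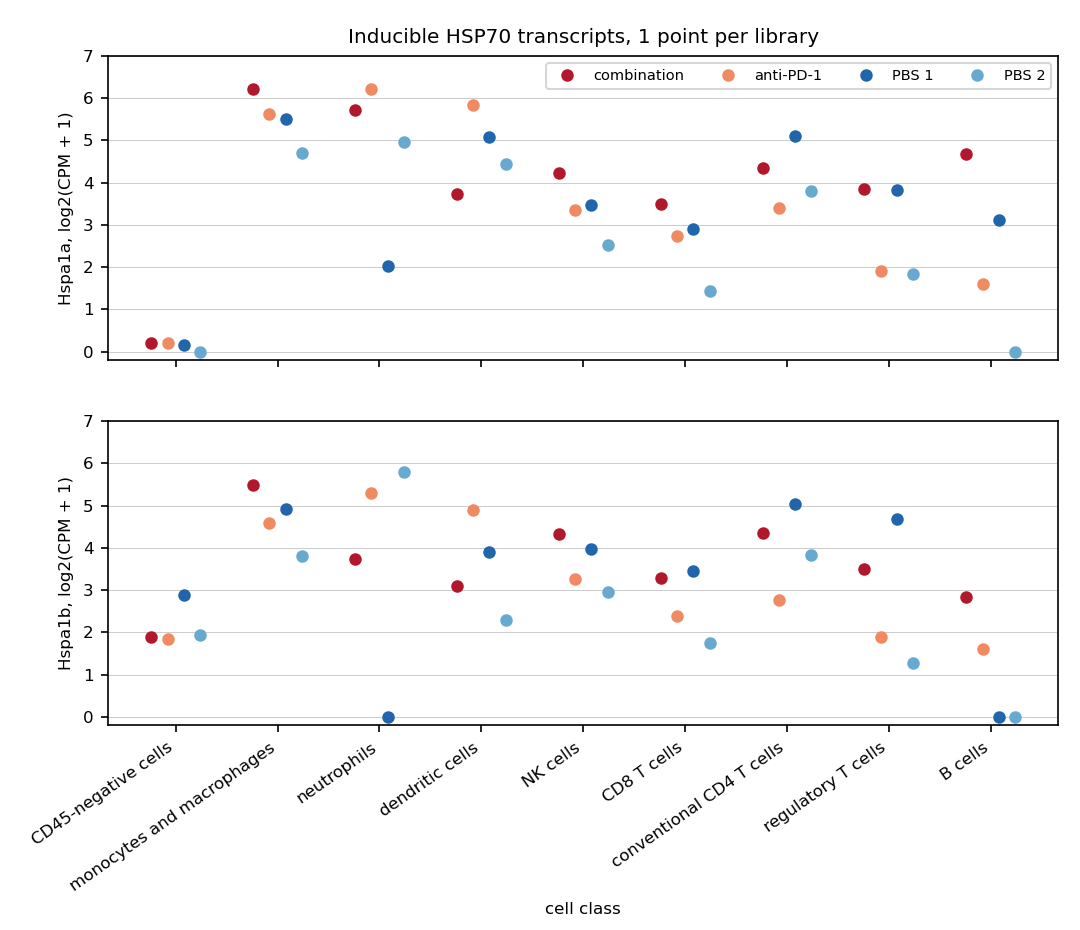
Hspa1a (top) and Hspa1b (bottom) as log2(CPM + 1) on the vertical axis, by cell class, with 1 point per library. Hspa1a is near 0 in all CD45-negative libraries while Hspa1b is not, and in most immune classes PBS 1 lies above PBS 2.

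Hspa1a sat in a minority of cells. Of monocytes and macrophages, 14.98% had a UMI in the combination library (147 of 981), 11.4% in anti-PD-1 (124 of 1086), 16.5% in PBS 1 (134 of 813) and 15.4% in PBS 2 (107 of 694). In CD45-negative cells, at a median of 64218.5, 46919.5, 68437 and 79593 UMIs per cell in the same libraries against 8504, 6095, 11409 and 12645.5 in monocytes and macrophages, the shares were 0.992%, 0.671%, 0.860% and 0%. With 0 detections in 160 PBS 2 cells, up to 1.88% could carry a Hspa1a UMI at this depth; cells that express the gene without a UMI are not limited by this. After thinning each cell to 1000 UMIs the shares in monocytes and macrophages were 4.95%, 2.75%, 3.33% and 1.73% in that order. Cells with Hspa1a also tended to hold its partner: Hspa1b was found in 20.6 to 36.1% of monocytes and macrophages with Hspa1a and in 2.81 to 6.48% of those without, over the 4 libraries. The same ranges were 35.7 to 54.2% and 1.71 to 2.75% in NK cells. Among monocytes and macrophages, Hsph1, the HSP110 nucleotide exchange factor, was found in 28.2 to 52.2% of cells with Hspa1a and 14.7 to 30.6% of those without, and Dnajb1, the main DnaJ partner of inducible HSP70, in 36.7 to 55.1% and 23.0 to 38.3%. Median depth of the cells with and without Hspa1a was 8231 and 8519.5 UMIs in the combination library, 7409.5 and 5954.5 in anti-PD-1, 12594 and 11227 in PBS 1, and 19767 and 12186 in PBS 2. The part of depth in this pattern was not tested. Fos, an immediate early gene, was found in 91.1 to 98.1% of monocytes and macrophages with Hspa1a and 82.6 to 95.2% of those without. These ranges overlapped.

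Among the other cytosolic HSP70 and HSP110 genes, Hspa12a (5.38), Hspa12b (3.86), Hsph1 (2.39), Hspa4l (2.12), the constitutive HSP70 gene Hspa8 (0.79) and Hspa4 (0.59) were higher in CD45-negative cells on the log2 scale, and Hspa2 (-2.50) and Hspa14 (-0.54) were lower. Hspa4l, an HSP110 family member, set neutrophils apart. It had 652 CPM in neutrophils of the combination library, 454 in anti-PD-1, 550 in PBS 1 and 479 in PBS 2, against 49.8, 37.3, 36.8 and 44.5 CPM in monocytes and macrophages. The difference was 3.66 ± 0.10 (log2; edgeR adjusted p = 8.3e-32), and the 2 classes did not overlap. Hspa8 went the other way in neutrophils, by -1.66 ± 0.13, and was higher in monocytes and macrophages than in lymphocytes by 0.83 ± 0.08. Hspa12b also passed the test in neutrophils (3.10), on levels of 7.38, 0, 3.07 and 0 CPM in the combination, anti-PD-1, PBS 1 and PBS 2 libraries. Hspa4 was lower in neutrophils by -0.74 ± 0.11 and Hsph1 by -1.33 ± 0.37.

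Both cytosolic HSP90 genes were higher in CD45-negative cells. Hsp90ab1, the constitutive form, had 5151 CPM there in the combination library, 5528 in anti-PD-1, 5082 in PBS 1 and 4500 in PBS 2, a difference of 2.31 ± 0.06 from the immune classes. In neutrophils it had 342, 240, 243 and 179 CPM, lower than in monocytes and macrophages by -2.41 ± 0.13. Hsp90aa1, the stress-responsive form, was higher in CD45-negative cells by 0.99 ± 0.12. Its neutrophil levels spread widely, at 536 CPM in the combination library, 1011 in anti-PD-1, 341 in PBS 1 and 1030 in PBS 2, and passed no test against monocytes and macrophages (0.32 ± 0.21).

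Of 4 small heat shock proteins tested, 3 were higher in CD45-negative cells and Hspb1 did not pass the test (0.68 ± 1.30). Hspb8, a partner of the co-chaperone Bag3, had 27.0 CPM in the combination library, 34.7 in anti-PD-1, 34.2 in PBS 1 and 36.8 in PBS 2, and its class means were between 0 and 0.615 CPM in all 8 immune classes (difference 7.21 ± 0.17). Cryab, alpha-B crystallin, had 76.7, 33.4, 19.7 and 20.6 CPM in the same libraries, 7.16 ± 0.24 above the immune classes, and was also higher in monocytes and macrophages than in lymphocytes (3.74 ± 0.51). Hspb6 was higher by 1.80 ± 0.25. Hspb1 was higher in monocytes and macrophages than in lymphocytes (2.59 ± 0.45), but its UMIs came from few cells: 130 UMIs from 18 of 981 cells in the combination library, 51 from 8 of 1086 in anti-PD-1, 69 from 14 of 813 in PBS 1 and 63 from 7 of 694 in PBS 2. A single cell gave 49 of the 130, 38 of the 51, 18 of the 69 and 45 of the 63. Hspb11, a transport protein of cilia despite its name, was higher in CD45-negative cells by 3.02 and in monocytes and macrophages by 1.10.

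In the endoplasmic reticulum, 6 of 8 members were higher in CD45-negative cells and the same 6 in monocytes and macrophages: Hsp90b1, Hspa5, Hspa13, Dnajc10, Dnajb11 and Dnajc3. Hsp90b1, the HSP90 of this compartment, had 1691 CPM in CD45-negative cells of the combination library, 1170 in anti-PD-1, 1637 in PBS 1 and 1457 in PBS 2 (2.14 ± 0.05 above the immune classes), and 746, 597, 762 and 760 CPM in monocytes and macrophages (1.26 ± 0.06 above the lymphocytes). Hspa5 was higher by 0.84 ± 0.11 in each of the 2 comparisons. Dnajb11, an HSP70 partner in this compartment, was higher by 0.28 and Dnajc3, an inhibitor of the kinase PERK, by 0.21 in CD45-negative cells, but with all sums thinned to equal totals they were at -0.28 and -0.05 with no call. Dnajb9, a DnaJ protein that restrains the stress sensor IRE1, and Dnajc1 were the members that were lower in both. Dnajb9 had 15.9, 17.1, 18.7 and 15.2 CPM in CD45-negative cells of the combination, anti-PD-1, PBS 1 and PBS 2 libraries (-2.29 ± 0.09), and it was the highest in neutrophils, with 153, 188, 194 and 318 CPM (2.14 ± 0.15 above monocytes and macrophages). In neutrophils Hspa5 had 785 CPM in the combination library and 805 in anti-PD-1, against 2273 in PBS 1 and 1795 in PBS 2. The treated libraries lay below both PBS libraries, but neither treatment difference passed the test (-1.43 ± 0.40 and -1.25 ± 0.40, edgeR adjusted p = 0.16 and 0.29).

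Of the mitochondrial chaperones, 7 of 8 tested were higher in CD45-negative cells. Hspd1, the mitochondrial HSP60, had 1335 CPM there in the combination library, 982 in anti-PD-1, 1222 in PBS 1 and 1072 in PBS 2, against 148, 118, 201 and 162 CPM in monocytes and macrophages. It was above the immune classes by 3.41 ± 0.06, its partner Hspe1 (HSP10) by 2.67 ± 0.06, and the mitochondrial HSP70 gene Hspa9 by 1.80 ± 0.06. Dnaja3 (1.31), Dnajc19 and Dnajc11 (0.75 each) and Dnajc30 (0.37) were also higher, and Dnajc15 was lower (-0.28). In neutrophils 6 of the 8 were lower than in monocytes and macrophages, with Dnajc19 at -2.29, Hspe1 at -2.25 and Hspd1 at -2.13, whereas Hspa9 was higher by 0.52.

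The cytosolic DnaJ proteins of classes A and B were mixed. In CD45-negative cells 6 of 10 were higher, led by Dnajb4 (2.14), Dnajb14 (1.63), Dnajb2 (1.29) and Dnaja2 (1.01), with Dnajb12 at 0.47 and Dnajb1 at 0.53, and Dnaja1 did not pass the test (0.13 ± 0.06). Dnajb6, a strong suppressor of protein aggregation, was lower (-1.27). In monocytes and macrophages 7 of 10 were lower than in lymphocytes: Dnaja4 (-2.53), Dnajb4 and Dnajb6 (-0.60 each), Dnajb2 (-0.59), Dnajb1 (-0.50), Dnaja1 (-0.38) and Dnajb12 (-0.18). Dnajb14, a DnaJ protein anchored in the endoplasmic reticulum membrane, ran the other way at 2.78 ± 0.08. It had 79.7, 71.6, 86.8 and 90.4 CPM in monocytes and macrophages of the combination, anti-PD-1, PBS 1 and PBS 2 libraries, against 8.11, 8.36, 6.90 and 7.28 CPM in CD8 T cells. In neutrophils Dnajb2 (1.69), Dnajb6 (0.81), Dnajb4 (0.77) and Dnaja1 (0.42) were higher and Dnajb14 (-2.28), Dnajb12 (-1.50) and Dnaja2 (-0.54) lower. Dnajb5 had no UMI in any neutrophil library, against a mean of 2.69 CPM in monocytes and macrophages. A floor of 3 counts over the 4 neutrophil libraries is 1.65 CPM before TMM scaling, so no fold is given.

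Other members also differed between classes. Dnajc22 (7.04) was higher in CD45-negative cells, and Dnajb13 (-4.59), Dnajc12 (-1.14) and Dnajc8 (-0.45) were lower, while Dnajc5 (-0.18) was lower and Dnajc7, which binds HSP70 and HSP90, was higher by 0.14 in the main test and at -0.16 with thinned sums. Monocytes and macrophages were above lymphocytes for Dnajc12 (1.08) and Dnajc16 (1.02) and below them for Dnajc9 (-1.19), a histone chaperone with a DnaJ domain. In neutrophils Dnajc18 (-4.24), Dnajc9 (-2.42), Dnajc24 (-1.94), Hspbp1 (-1.94) and Dnajc7 (-1.27) were lower, and Hspbap1 (1.40), Hspa13 (0.81) and Dnajc5, the cysteine string protein, (0.64) were higher. The value of 4.38 for Dnajc6, which uncoats clathrin vesicles with Hspa8, came from PBS 2 alone, at 10.1 CPM against 0 in the other neutrophil libraries, and without PBS 2 it was -3.25 with no call.

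Other genes of protein folding were counted over lists chosen with earlier results known. Among all genes, 46.7% were higher and 34.4% lower in CD45-negative cells, and 40.7% and 32.6% in monocytes and macrophages. In neutrophils the shares of all genes were 22.5% and 33.7%. Of 26 heat shock factors and co-chaperones, 20 were higher and 3 lower in CD45-negative cells (median 0.83), led by the collagen chaperone Serpinh1 (7.74) and the HSP70 co-chaperone Bag2 (3.92). All 14 subunits of the chaperonin TRiC and of prefoldin, which fold actin and tubulin, were higher there (median 1.48), and 12 of 14 were lower in neutrophils than in monocytes and macrophages (median -1.78). Of 22 tested genes of the unfolded protein response, 15 were higher and 7 lower in CD45-negative cells, and 16 higher and 2 lower in monocytes and macrophages. Of 13 genes of mitochondrial protein quality control, 10 were higher and 3 lower in CD45-negative cells. Of 21 genes that respond to tissue handling, mostly immediate early genes, 4 were higher in CD45-negative cells (Rhob, Klf4, Ier3 and Jun) and 15 lower (median -1.14). In monocytes and macrophages 16 of the 21 were higher and 5 lower (median 1.29), and in neutrophils 16 were higher and 2 lower than in monocytes and macrophages (median 0.87). The handling genes and Hspa1a were both low in CD45-negative cells and both high in monocytes and macrophages, but not parallel in neutrophils. Neutrophils had the highest sum of the handling genes of the 9 classes, without TMM scaling. It was 13406 CPM in the combination library, 11414 in anti-PD-1, 11771 in PBS 1 and 12839 in PBS 2. Monocytes and macrophages had 7124, 6327, 7020 and 6910. With TMM scaling, Hspa1a had 51.7, 72.8, 3.07 and 30.2 CPM in neutrophils of the same libraries, from 21, 17, 1 and 15 UMIs. This was below monocytes and macrophages in the combination library and PBS 1 and above them in anti-PD-1 and PBS 2. The part of handling in the class differences was not tested.

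The PBS libraries differed in the inducible pair. Of 447 gene and class pairs with at least 20 UMIs in 1 of the 2 libraries, 22 (4.92%) differed by 2-fold or more between PBS 1 and PBS 2, against 3.82% of all gene and class pairs, and 16 of the 22 were higher in PBS 1. Hspa1a and Hspa1b made up 11 of the 22. A pair with few UMIs enters this count only through the library where it is high. With a filter on the sum of both libraries (40 UMIs or more), added after the data were seen, 15 of 431 pairs (3.48%, background 2.42%) passed 2-fold, 12 higher in PBS 1, and Hspa1a and Hspa1b made up 10 of the 15. With 1 library on each side there is no test, and intervals cover counting error only. Hspa1b had 345 UMIs in PBS 1 and 154 in PBS 2 in monocytes and macrophages (ratio of CPM 2.21, exact 95% interval 1.83 to 2.69), 145 and 40 in CD8 T cells (3.98), 80 and 33 in conventional CD4 T cells (2.33), 85 and 6 in regulatory T cells (16.8), 114 and 54 in NK cells (2.04) and 161 and 38 in CD45-negative cells (2.09). Hspa1a was higher in PBS 1 in CD8 T cells (94 and 29 UMIs, ratio 3.56), conventional CD4 T cells (83 and 32, 2.49), regulatory T cells (45 and 11, 4.87) and NK cells (79 and 38, 2.01). Neutrophils went the other way, with 0 Hspa1b UMIs in PBS 1 against 27 in PBS 2, and 111 Hsp90aa1 UMIs in PBS 1 against 512 in PBS 2 (ratio 0.362). The neutrophil class joins clusters I15 and I22 in unequal parts, with I15 holding 36 of 136 cells in PBS 1 and 112 of 190 in PBS 2. Of the 27 Hspa1b UMIs 26 lay in I15, where PBS 1 had 0, and Hsp90aa1 had 634 CPM in PBS 1 and 1216 in PBS 2 in I15, and 147 and 207 in I22. At 50 UMIs or more, 13 of 372 pairs (3.49%) remained past 2-fold. The share of all genes past 2-fold at this cut ran by class from 0.952% in B cells to 6.90% in neutrophils. Summed levels of the 21 handling genes were 7020 CPM in PBS 1 and 6910 in PBS 2 in monocytes and macrophages and 3271 and 3046 CPM in CD8 T cells.

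**Figure D3:**
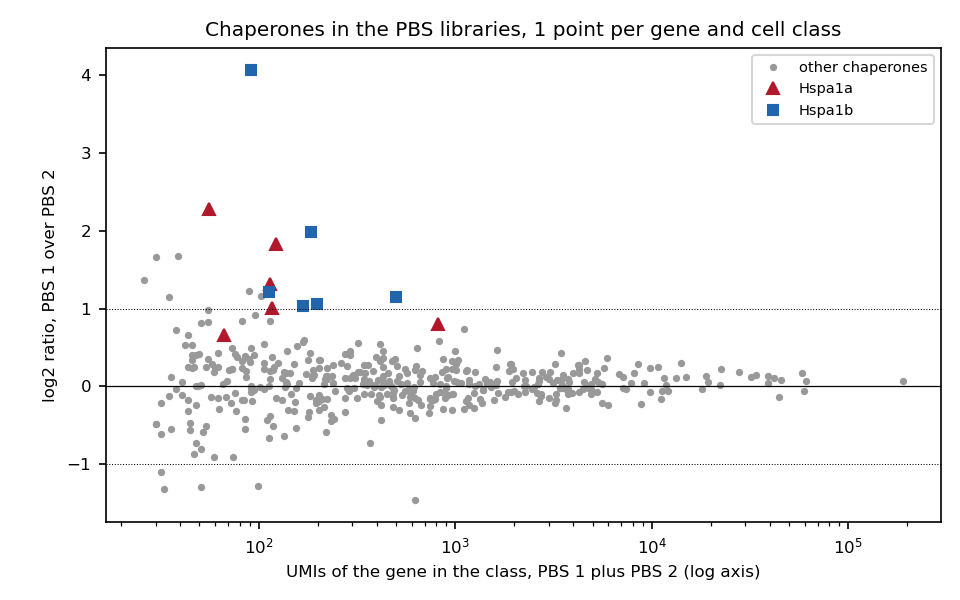
Log2 ratio of PBS 1 over PBS 2 (vertical axis) against the UMIs behind it (horizontal axis, log scale) for 446 of the 447 gene and class pairs; dotted lines mark 2-fold, and Hspa1b in neutrophils, with 0 UMIs in PBS 1, is not drawn. Most chaperones lie near 0, whereas all drawn points of Hspa1a and Hspa1b lie above it.

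The treatment comparisons used the PBS pair as the only replicates, so the tests take a lone treated library to scatter like these 2, and combination over anti-PD-1 sets one library against another rather than conditions. The comparisons with PBS share the same controls. Combination over PBS called 9 of 494 tests of a member in a class (1.82%), where 2.09% of all tests were called; 6 were higher and 3 lower. Combination over anti-PD-1 called 8 (1.62%, background 2.12%), 7 higher and 1 lower. Anti-PD-1 over PBS called 18 (3.64%, background 3.16%), 9 each way. Each share lies near its background. Without the smaller copies of shared barcodes there were 9, 7 and 15 calls, of which 3, 4 and 10 were among those above. The balance of directions turned with that setting: 3 were higher and 6 lower for combination over PBS, 5 and 2 for combination over anti-PD-1, and 4 and 11 for anti-PD-1 over PBS. DESeq2 called 1, 2 and 2 of the same tests, and at an unadjusted p under 0.05 edgeR gave 59, 76 and 83. Of the 35 calls, 3 held under all 9 alternatives and 12 under 4 or fewer. Regulatory T cells, B cells, dendritic cells and neutrophils had 0 calls in edgeR in each comparison, and 0 in DESeq2; for anti-PD-1 over PBS, 19 of the 188 tests in these 4 classes had an unadjusted edgeR p under 0.05. In the 6 classes without a call, CD8 and conventional CD4 T cells included, it was 30 of 307 tests for combination over PBS and 31 of 307 for combination over anti-PD-1, with 0 calls in DESeq2.

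By class, CD45-negative cells had 3 of 64 members called for combination over PBS (background 3.45%), 4 for combination over anti-PD-1 (4.43%) and 6 for anti-PD-1 over PBS (5.37%). Monocytes and macrophages had 2, 3 and 6 of 63 (7.16%, 7.79% and 13%), and NK cells 4, 1 and 2 of 60 (1.87%, 1.49% and 1.61%). CD8 T cells had 1 of 62 (1.69%) and conventional CD4 T cells 3 of 57 (0.355%), both for anti-PD-1 over PBS.

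Cryab in CD45-negative cells differed in all 3 comparisons. The gene lies on the plus strand at chr9:50751325-50756636 (GRCm38). On the scale of that class it had 72.5 CPM in the combination library and 32.4 in anti-PD-1, against 18.9 in PBS 1 and 20.3 in PBS 2, from 2469, 443, 499 and 277 UMIs. The PBS libraries nearly coincided, anti-PD-1 lay above both and the combination library lay above all. Combination over PBS was 1.89 ± 0.13 (log2, SE; edgeR adjusted p = 7.4e-42), combination over anti-PD-1 was 1.16 ± 0.15 (1e-10), and anti-PD-1 over PBS was 0.73 ± 0.14 (6.1e-05). The 21 handling genes had the same direction as Cryab in the combination library but not in anti-PD-1. They summed to 3158 CPM in the class in the combination library and 2459 in anti-PD-1, against 2718 in PBS 1 and 2793 in PBS 2. For combination over PBS 5 of them were higher and 0 lower (Zfp36 by 1.22, with Socs3, Jund, Rhob and Ier3). Of all genes in the class, 3.45% were called there. For combination over anti-PD-1 6 were higher and 0 lower (background 4.43%). For anti-PD-1 over PBS 0 were higher and 4 lower (background 5.37%). Their part in the Cryab result was not tested. Both differences of the combination library kept their call under all 9 alternative settings and that of anti-PD-1 under 8. Without the smaller copies of shared barcodes the 3 values were 1.89, 1.07 and 0.82. Of the cells, 40.9% had a Cryab UMI in the combination library (206 of 504), 26.8% in anti-PD-1 (80 of 298), 27.5% in PBS 1 (96 of 349) and 29.4% in PBS 2 (47 of 160); the shares in CD8 T cells were 0.474%, 0.104%, 0.0818% and 0.0873%, at medians of 9113, 6374, 9470 and 11268.5 UMIs. Thinned to 1000 UMIs they were 5.56%, 3.02%, 1.15% and 3.75% in CD45-negative cells. The top 5% of cells held 58.4% of the Cryab UMIs in the combination library, 66.6% in anti-PD-1, 68.3% in PBS 1 and 70.0% in PBS 2.

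The order of the libraries was set side by side within clusters, as CPM within a cluster without TMM scaling. In N9, led by Robo2, Cryab had 174 in the combination library and 80.5 in anti-PD-1, against 40.8 in PBS 1 and 64.7 in PBS 2. In N4, with collagen genes, it had 83.0 and 33.3, against 23.0 and 6.44, and in N1 47.4 and 15.9, against 25.1 and 15.9. In the cycling cluster N5 it had 42.7 and 6.76, against 5.77 and 9.42. The combination library was highest in each of the 4 clusters, whereas anti-PD-1 lay above both PBS libraries only in N9 and N4. Skeletal muscle also expresses Cryab, and cluster N0, which is outside the class, was led by the muscle genes Acta1, Tpm2 and Des: there Cryab had 52.7 and 238, against 9.23 and 34.6, and the 6 muscle markers summed to 263.5 CPM in the combination library and 663.2 in anti-PD-1, against 3.1 in PBS 1 and 450.0 in PBS 2. Within the class these markers summed to 2.81 CPM in the combination library and 1.45 in anti-PD-1, against 2.63 in PBS 1 and 2.93 in PBS 2, with Myh4 at 0 in all 4. In cells of the class without a UMI of these markers, Cryab had 70.8 CPM in the combination library and 31.5 in anti-PD-1. It had 16.3 in PBS 1 and 21.8 in PBS 2, all without TMM scaling.

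**Figure D4:**
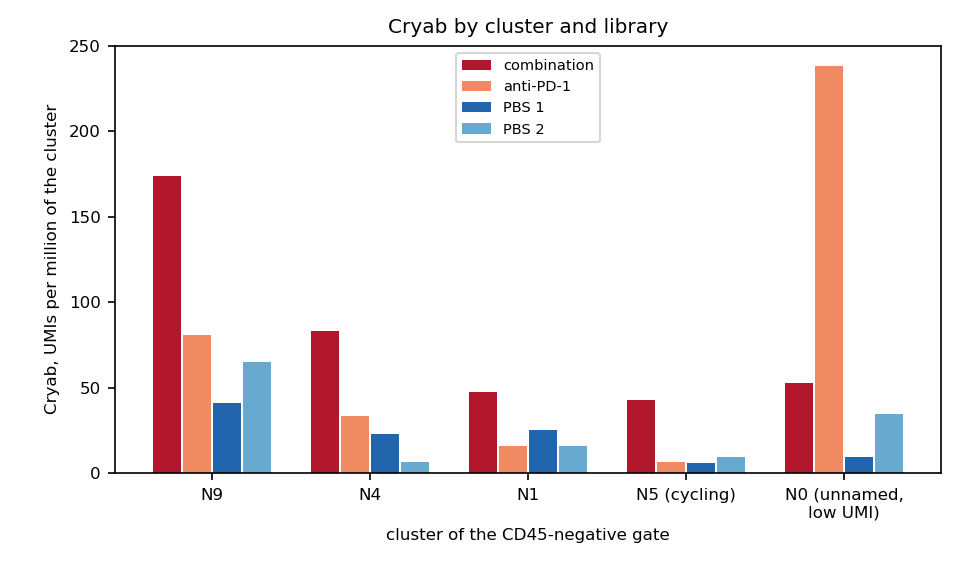
Cryab in CPM of a cluster (vertical axis) for the 4 clusters of the CD45-negative class and the unnamed low-UMI cluster N0, 1 bar per library. The combination library is highest in N9, N4, N1 and N5, and anti-PD-1 is highest in N0.

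Hspb1 and Hspb8 passed the test on fewer counts. Hspb1 in CD45-negative cells had 67 UMIs in the combination library, from 13 cells, and 0 in anti-PD-1, against 17 in PBS 1 and 5 in PBS 2. Combination over PBS was 1.88 ± 0.57 (edgeR adjusted p = 0.035), the combination library was at least 8.98-fold above anti-PD-1, and anti-PD-1 was at least 2.30-fold below PBS, with a floor of 3 counts in the anti-PD-1 library. Hspb1 in monocytes and macrophages was higher in the combination library (11.1 CPM, with 6.47 in anti-PD-1) than in PBS 1 (5.63) and PBS 2 (5.07), by 1.05 ± 0.25, on the few cells given above. Cluster I6, with 76 of the 981 combination cells, gave 81 of the 130 UMIs, and with doublets kept the value was -0.080 (edgeR adjusted p = 0.95). Hspb8 was lower in CD45-negative cells, with 25.5 CPM in the combination library against 32.8 in PBS 1 and 36.4 in PBS 2 (-0.43 ± 0.14, edgeR adjusted p = 0.047), a call kept under 1 of 9 alternatives. Combination over PBS of Hspb1 and of Hspb8 in CD45-negative cells, and anti-PD-1 over PBS of Hspb1, lost their call without the smaller copies of shared barcodes. The call of Hspb1 for combination over PBS in CD45-negative cells held under 2 of 9 alternatives.

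The inducible pair was higher in summed NK cells of the combination library, by an excess that lay in some of the 7 NK clusters. Hspa1a had 18.4 CPM in the combination library and 9.53 in anti-PD-1, against 10.6 in PBS 1 and 5.002 in PBS 2 (combination over PBS 1.24 ± 0.25, edgeR adjusted p = 0.00014). Hspa1b had 19.8 and 8.88 CPM, against 15.3 and 7.11 (0.83 ± 0.23 over PBS and 1.16 ± 0.28 over anti-PD-1). The gap between the PBS libraries is part of these values: without PBS 1 the first difference was 1.88 and without PBS 2 it was 0.80, and those of Hspa1b over PBS were 1.48 and 0.37. Few cells carried the gene, 48 of 1605 NK cells in the combination library, 22 of 1368 in anti-PD-1, 23 of 787 in PBS 1 and 14 of 740 in PBS 2, and a single combination cell gave 27 of the 212 UMIs. Within clusters, as CPM without TMM scaling, Hspa1a had 72.4 in I1 of the combination library and 7.28 in anti-PD-1, against 0 in both PBS libraries, and 59.3 and 19.1 in I3, against 10.9 in PBS 1 and 11.4 in PBS 2. The combination library also lay above both PBS libraries in I13 (12.9, against 3.56 and 1.35). It did not in I2 (9.14, against 9.51 and 0.53), I11 (18.8, against 33.4 and 6.19), I14 (13.2, against 13.3 and 19.5) and T26 (0, against 8.02 and 2.86). Without the smaller copies of shared barcodes the Hspa1a value was 1.46 and those of Hspa1b 0.81 and 1.28, with no call (edgeR adjusted p = 0.055, 0.65 and 0.31). The 21 handling genes summed to 4327 CPM in NK cells of the combination library and 3040 in anti-PD-1, against 3652 in PBS 1 and 3605 in PBS 2, and their part in the result was not tested. In conventional CD4 T cells Hspa1b was lower in anti-PD-1, with 6.29 CPM against 34.2 in PBS 1 and 14.3 in PBS 2 (-1.94 ± 0.47). Without PBS 1 that value was -1.17, and without PBS 2 it was -2.43. In monocytes and macrophages Hspa2 was higher in both treated libraries, with 13.6 CPM in the combination library and 13.3 in anti-PD-1, against 7.83 in PBS 1 and 8.69 in PBS 2 (0.71 ± 0.21 and 0.69 ± 0.22), and neither call held without the copies.

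Mitochondrial HSP60 was lower than in PBS in 3 immune classes of anti-PD-1 and in NK cells of the combination library. Hspd1 in NK cells had 187 CPM in the combination library and 169 in anti-PD-1, against 312 in PBS 1 and 253 in PBS 2 (-0.60 ± 0.14 and -0.74 ± 0.14 over PBS, with edgeR adjusted p of 0.0031 and 0.00013). In anti-PD-1 it was also lower in monocytes and macrophages, with 114 CPM against 192 in PBS 1 and 155 in PBS 2 (-0.61 ± 0.12), and in conventional CD4 T cells, with 77.2 CPM against 149 and 121 (-0.81 ± 0.20). Its partner Hspe1 was lower in NK cells of the combination library, at 215 CPM against 342 and 279 in PBS 1 and PBS 2 (-0.53 ± 0.14), with 309 CPM in anti-PD-1, and lost its call without the copies of shared barcodes. The conventional CD4 call of Hspd1 was also lost (edgeR adjusted p = 0.084), and it held under 1 of 9 alternatives. The mix of clusters within classes differed between libraries. Of monocytes and macrophages, cycling cluster I6 held 76 of 981 in the combination library and 57 of 1086 in anti-PD-1. It held 91 of 813 in PBS 1 and 82 of 694 in PBS 2. Of NK cells, cycling cluster T26 held 52 of 1605 and 54 of 1368, against 55 of 787 and 37 of 740. The part of this mix in the Hspd1 and Hspe1 values was not tested. Dnajc15, a DnaJ protein of the mitochondrial inner membrane, was higher in anti-PD-1 in CD8 T cells (285 CPM, against 186 in PBS 1 and 208 in PBS 2; 0.53 ± 0.11), in CD45-negative cells (0.43 ± 0.13) and in monocytes and macrophages (0.43 ± 0.12).

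The remaining calls were of DnaJ genes, Hspa4 and Hspb11. Dnajb4, a cytosolic partner of HSP70, fell in CD45-negative cells, to 78.8 CPM in anti-PD-1, against 137 in PBS 1 and 125 in PBS 2 (-0.74 ± 0.14, edgeR adjusted p = 2.4e-05), a call that held under all 9 alternatives, and the combination library, at 109 CPM, was above anti-PD-1 by 0.47 ± 0.15. Dnajc10, a disulfide reductase of the endoplasmic reticulum, had 62.4 CPM in CD45-negative cells of the combination library and 47.0 in anti-PD-1, against 66.9 in PBS 1 and 62.9 in PBS 2 (anti-PD-1 over PBS -0.47 ± 0.13), and in monocytes and macrophages the combination library was above anti-PD-1 by 0.45 ± 0.14. Dnajc4 was higher in anti-PD-1 than in PBS in 3 classes, by 0.88 ± 0.25 in NK cells, 0.75 ± 0.17 in monocytes and macrophages and 0.52 ± 0.16 in CD45-negative cells, and in monocytes and macrophages the combination library was below anti-PD-1 by -0.90 ± 0.20. In monocytes and macrophages Dnajc9 (-0.58 ± 0.15) and Hspa4 (-0.34 ± 0.10) were lower in anti-PD-1 than in PBS, and Hspb11 was higher in the combination library than in anti-PD-1 (0.61 ± 0.20). The part of the cluster mix of this class, given above for I6, was not tested for these genes. Dnajb2 was higher in conventional CD4 T cells in anti-PD-1 (1.38 ± 0.36), from 50 UMIs in anti-PD-1, against 33 in PBS 1 and 18 in PBS 2. Dnajc24, which serves the diphthamide modification of elongation factor 2, was higher in CD45-negative cells of the combination library than in anti-PD-1 (0.79 ± 0.18). Without the copies of shared barcodes, the calls of Dnajb2, of Dnajc4 in NK and CD45-negative cells, of Dnajc15 in CD45-negative cells and in monocytes and macrophages, of Hspb11, and of combination over anti-PD-1 for Dnajb4 and Dnajc10 were lost.

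**Figure D5:**
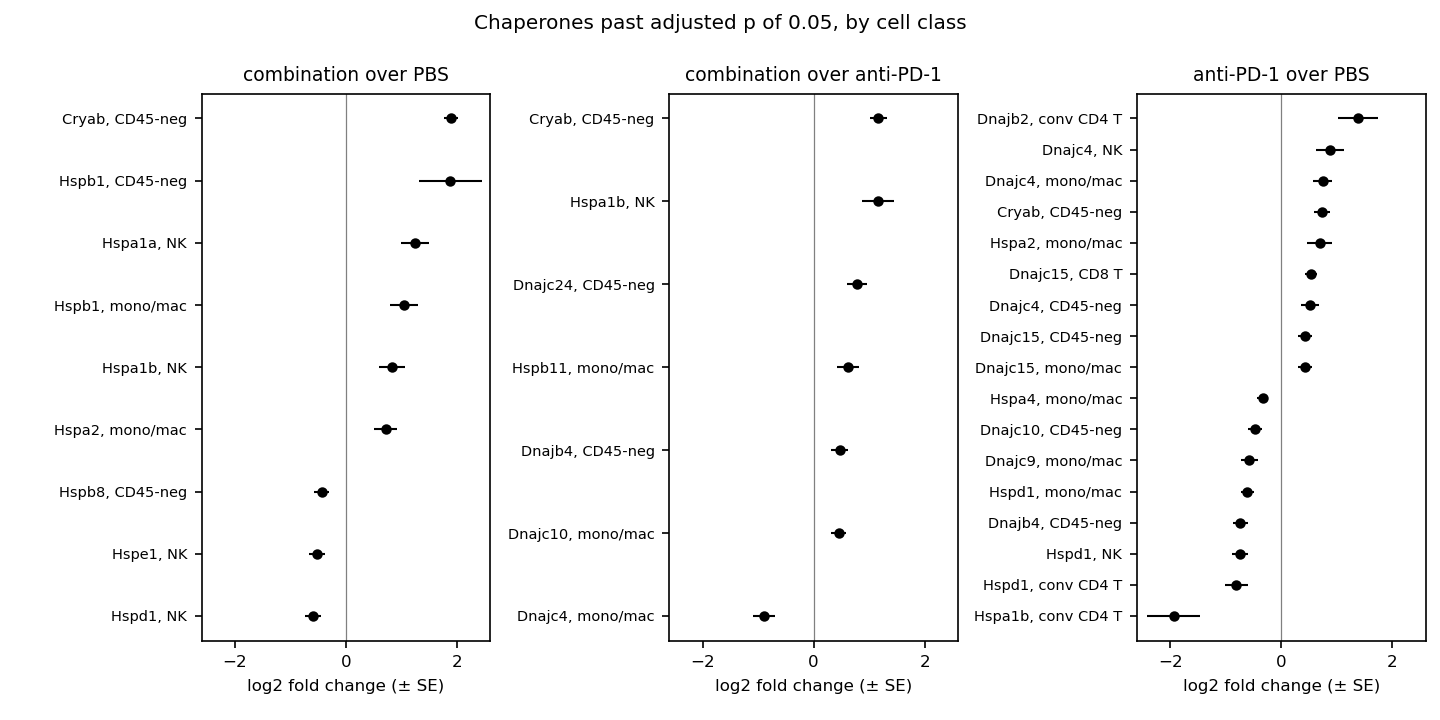
Log2 fold changes with their standard errors (horizontal axis) for the called members, with the gene and cell class on the vertical axis and 1 panel per comparison; mono/mac stands for monocytes and macrophages. Hspb1 in CD45-negative cells, with 0 UMIs in anti-PD-1, is left out of the 2 panels that use that library; Cryab in CD45-negative cells has the narrowest error of the large changes.

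The change from PBS in the combination library differed between classes for 7 members, by a test of the difference itself with the library as a block. This test again has 1 combination library and takes its scatter from the PBS pair. Between monocytes and macrophages and CD8 T cells 4 of 65 members (6.15%) differed, where 2.49% of all genes did: Dnajb1 by 0.61 ± 0.14, Dnaja1 by 0.52 ± 0.10, Hspa5 by 0.33 ± 0.09 and Hspa8 by 0.31 ± 0.08. Dnajb1 had 43.0 CPM in monocytes and macrophages of the combination library and 46.8 in anti-PD-1, against 39.96 in PBS 1 and 33.2 in PBS 2; in CD8 T cells it had 53.2 and 59.7 CPM, against 71.5 and 63.2. Between CD45-negative cells and monocytes and macrophages 3 of 66 (4.55%, background 0.878%) differed: Cryab by 1.79 ± 0.35, Hspa9 by 0.59 ± 0.11 and Hspa1b by -1.81 ± 0.26. Hspa1b had 2.59 CPM in CD45-negative cells of the combination library and 2.49 in anti-PD-1, against 6.09 in PBS 1 and 2.79 in PBS 2, and 41.3 and 22.1 CPM in monocytes and macrophages, against 28.1 and 12.4. The PBS libraries thus differed by 2-fold or more in both classes for Hspa1b. Cluster I19, led by Mmp12, Hmox1 and Arg1, held 47 of the 981 monocytes and macrophages of the combination library and gave 204 of their 485 Hspa1b UMIs. Its share was 59 of 174 UMIs in anti-PD-1, 51 of 345 in PBS 1 and 41 of 154 in PBS 2. Outside I19, a division chosen after the values were seen, Hspa1b had 25.7 CPM without TMM scaling in the combination library and 14.3 in anti-PD-1, against 25.3 in PBS 1 and 10.2 in PBS 2, so that the combination library was level with PBS 1. For anti-PD-1 over PBS, 0 members passed either test in edgeR, with 6 of 65 and 7 of 66 at an unadjusted p under 0.05; DESeq2 was not run on these differences.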

How the data were processed

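Each of the 4 deposited matrices holds unnormalized UMI counts for genes and barcodes. Per the file headers the software was Cell Ranger 7.1.0, but version 3.0.2, with mm10, stands in the submitters' processing notes. Intron and strand settings were not given in the sources used here. The filter required 200 or more genes and a mitochondrial share below 15%. Scrublet's automatic threshold marked 346 combination cells, 2 anti-PD-1 cells, 2 PBS 1 cells and 0 PBS 2 cells, so the top scores were taken out at a rate of 0.8% for every 1000 barcodes (975, 1364, 354 and 324 cells). Cells were clustered with scanpy 1.11.5 and leidenalg 0.10.2 on 2000 variable genes without the chaperones, and named from markers.

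For each class, counts were added up by library and compared with edgeR 4.0.16 (quasi-likelihood, TMM, filterByExpr minimum 10, Benjamini-Hochberg adjustment over all genes of a class, or of the comparison of classes) in R 4.3.3; DESeq2 1.42.0 was an alternative. For treatment, 2 PBS libraries were the only replicates, and a treated library was taken to scatter like them. Scripts were tested on simulated data. Comparisons of classes had the library as a block, since all classes of a library were loaded and sequenced together. Levels of members are CPM with TMM scaling, over all classes or, for treatment, within a class. Sums over handling genes or cell type markers, ratios between the PBS libraries and values within clusters are without TMM scaling. So is Cryab in cells split by muscle markers. Fold changes are log2 with standard errors. Shares of cells were also given with each cell thinned to 1000 UMIs.

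The 76 members and the gene lists were chosen with earlier results of these data known. Core members were named whatever their values, beside up to 10 called members in each direction of a comparison; members under 20 UMIs are named without values. Promoters are RefSeq windows of GRCm38.p6. A count of 0 allows up to 3 counts. No columns of other samples were used. The values of 1 member are not reported here.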

Additional observations from a re-analysis of the deposited data

Results flagged for a closer look

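The change of 7 members in the 1 combination library, relative to PBS, differed between 2 cell classes by a test of the difference itself in edgeR. Between monocytes and macrophages and CD8 T cells the difference was 0.33 for Hspa5, 0.52 for Dnaja1, 0.61 for Dnajb1 and 0.31 for Hspa8, on the log2 scale, with adjusted p of 0.038, 0.0025, 0.011 and 0.030. Each of the 4 had a value above 0 or near it in monocytes and macrophages and below 0 in CD8 T cells, and none passed the test within a class. Between CD45-negative cells and monocytes and macrophages it was 1.79 for Cryab, -1.81 for Hspa1b and 0.59 for Hspa9, with adjusted p of 0.024, 0.0045 and 0.022.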

How the results depend on the processing

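Of the 3 treatment comparisons, combination over PBS had 9 calls, and 1 with the DESeq2 test, 4 with no filter on low counts, 5 with doublets kept and 4 with chaperone genes allowed in the clustering. Combination over anti-PD-1 had 8, and 2 with the DESeq2 test, 13 with chaperone genes in the clustering and 19 with mitochondrial UMIs under 10%. Anti-PD-1 over PBS had 18, and 2 with the DESeq2 test and 10 with no filter. Their balance of higher and lower calls also turned: 0 and 2 with the DESeq2 test, 3 and 7 with no filter and 8 and 13 with chaperone genes in the clustering for anti-PD-1 over PBS, against 9 and 9. The causes were not tested. With sums thinned to equal totals, 31, 19 and 27 members differed between classes, against 56, 44 and 48; the thinned sums tested 7817 genes in place of 14811. Leaving out a library gave 52 to 54, 41 to 46 and 40 to 46. No paired analysis was possible because the treated groups have 1 library each; in the comparisons of classes, the fits with no replicate block gave 55, 39 and 48. At 50 UMIs or more, 13 of 372 gene and class pairs (3.49%) differed between the PBS libraries, with the background given above. With the filter on the sum of both, it was 15, against 22.

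Thinned to 1000 UMIs, Hspa1a was found in 4.95% of monocytes and macrophages of the combination library, 2.75% of anti-PD-1, 3.33% of PBS 1 and 1.73% of PBS 2, and Cryab in 5.56%, 3.02%, 1.15% and 3.75% of CD45-negative cells in the same libraries. The direction turned for Hspb1 in monocytes and macrophages with doublets kept (-0.080), and for Dnajc7 in CD45-negative cells with doublets kept (-0.13). It turned with thinned sums for Dnajc14 (-0.071), Dnajc7 (-0.16), Dnajc3 (-0.050) and Dnajb11 (-0.28) in CD45-negative cells, Dnajc24 (0.069) in monocytes and macrophages and Dnajc8 (0.086) in neutrophils. It also turned for Dnajc6, neutrophils over monocytes and macrophages, without PBS 2, with a range of -3.25 to 5.04 over the libraries left out. With doublets kept, the neutrophil class was not rebuilt. Leaving out a PBS library gives log2 values of treatment differences with no test: of 27 called differences from PBS, 10 moved by more than their standard error without PBS 1 and 8 without PBS 2, and 0 changed sign.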
